A study of Mus musculus with 18 samples.

Results

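Hepatocytes acquire and keep their character through a small set of transcription factors that bind each other's promoters as well as the genes of liver function. HNF4A, a nuclear receptor, governs many genes of lipid, clotting and bile acid metabolism, the FOXA proteins open chromatin ahead of other factors, and the C/EBP proteins drive metabolic and acute phase genes. Hepatocellular carcinoma (HCC), a malignancy of hepatocytes, is known to retain some of these factors and to lose others. The genes described here are 9 members of this set: Hnf4a, Foxa1, Foxa2, Foxa3, Cebpa, Cebpb, Onecut1, Nr5a2 and Prox1. They were taken by gene symbol from the platform annotation, which names 18194 genes, and 19 of the 45101 probe sets on the array carried their symbols. Of these, 16 exceeded log2 4 on at least 3 of the 18 arrays and were tested, and 3 (Hnf4a 1450447_at, Nr5a2 1449707_at and Prox1 1421336_at) stayed below log2 4 on every array.

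RNA of 18 male mouse samples was hybridised to Affymetrix arrays, which give a log2 signal for each probe set. Tlr4-mutant tumours (n = 5) were HCC lesions of C3H/HeJ mice, whose Tlr4, the receptor for bacterial lipopolysaccharide, carries the change P712H. Antibiotic tumours (n = 3) came from wild-type (WT) C3H/HeOuJ mice that drank ampicillin, neomycin and metronidazole at 1 g/l each and vancomycin at 500 mg/l from week 10 to week 54. WT tumours (n = 7) came from C3H/HeOuJ mice without antibiotics. All 15 tumours were dissected at 54 weeks of age from mice given 100 mg/kg of the carcinogen diethylnitrosamine (DEN) in week 12, then CCl4, which injures hepatocytes, at 0.5 ml/kg in 6 injections over weeks 13 to 23. Normal liver (n = 3) came from 15-week-old C3H/HeOuJ mice given none of these agents. The Tlr4 change and the substrain that carries it cannot be told apart. Nothing in the labels states that each sample is a different animal, and a p-value therefore covers only the spread among these samples, possibly a technical one.

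The tissue label held for hepatocyte genes in every group. The mean of 8 hepatocyte markers, such as albumin and transthyretin, lay at log2 14.19 to 14.25 in Tlr4-mutant tumours, 14.10 to 14.17 in antibiotic tumours, 13.53 to 14.19 in WT tumours and 14.06 to 14.13 in normal liver. WT tumours 17 and 19 stood apart with the lowest values, 13.89 and 13.53, and results that rest on them are given with and without them. The median of the tested probe sets was 6.69 to 6.85 on the 18 arrays. Signal from the 3′ end exceeded that from the 5′ end of Gapdh by 0.20 to 1.02 log2 in tumours and 1.52 ± 0.13 (SD, n = 3) in normal liver, and of actin by 1.85 to 2.79 in tumours and 3.90 ± 0.31 in normal liver. The spiked control dap read 1.89 ± 0.09 (SD, n = 15) in tumours and 8.62 ± 0.19 (SD, n = 3) in normal liver. Tumour growth, age and these differences in labelling or RNA quality cannot be told apart in any comparison with normal liver. In bulk samples fewer cells of a type and less RNA per cell cannot be told apart either, and the small number of arrays limits the precision.

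RefSeq (build GRCm38.p6) annotates 14 start sites for the 9 genes, and a few of their upstream windows are shown to place the results. The windows of Cebpa and Onecut1 are given because these genes varied together among the tumours, and both Hnf4a windows because the probe sets of Hnf4a disagreed. A Foxa2 window is given because ONECUT1, the product of the member that varied most, is known to act on Foxa2 and Hnf4a. Of the Foxa2 windows, the one shown is that with the ONECUT match. Capitals mark matches to the ONECUT motif TATTGAT or the HNF1 motif GTTAATNNT on either strand, and a window ends at the base before an annotated start. The Hnf4a upstream window (chr2:163506607-163506810, plus strand) holds 204 bases, since it is cut where the annotated gene begins, and the other windows hold 250 bases: the Hnf4a downstream start (chr2:163546905-163547154, plus strand), Foxa2 (chr2:148046970-148047219, minus strand), Cebpa (chr7:35119043-35119292, plus strand) and Onecut1 (chr9:74861671-74861920, plus strand).
Hnf4a upstream start: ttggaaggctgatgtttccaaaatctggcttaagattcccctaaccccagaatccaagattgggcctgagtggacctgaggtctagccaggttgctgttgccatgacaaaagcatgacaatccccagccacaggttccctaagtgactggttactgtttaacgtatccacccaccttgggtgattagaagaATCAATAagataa
Hnf4a downstream start: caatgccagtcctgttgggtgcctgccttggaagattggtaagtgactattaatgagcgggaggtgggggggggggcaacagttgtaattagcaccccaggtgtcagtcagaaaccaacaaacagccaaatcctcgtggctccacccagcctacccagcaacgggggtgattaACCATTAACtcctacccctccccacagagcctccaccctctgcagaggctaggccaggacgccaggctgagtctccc
Foxa2: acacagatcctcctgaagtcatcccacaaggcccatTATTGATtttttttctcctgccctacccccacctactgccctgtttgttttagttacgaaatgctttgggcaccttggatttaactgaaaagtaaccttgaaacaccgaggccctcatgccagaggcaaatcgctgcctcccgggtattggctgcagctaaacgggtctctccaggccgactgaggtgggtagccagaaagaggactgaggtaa
Cebpa: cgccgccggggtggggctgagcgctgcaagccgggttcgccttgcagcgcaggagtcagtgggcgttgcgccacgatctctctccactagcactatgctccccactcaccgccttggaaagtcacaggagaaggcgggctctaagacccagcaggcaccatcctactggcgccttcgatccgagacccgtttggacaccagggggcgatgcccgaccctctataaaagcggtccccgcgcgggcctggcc
Onecut1: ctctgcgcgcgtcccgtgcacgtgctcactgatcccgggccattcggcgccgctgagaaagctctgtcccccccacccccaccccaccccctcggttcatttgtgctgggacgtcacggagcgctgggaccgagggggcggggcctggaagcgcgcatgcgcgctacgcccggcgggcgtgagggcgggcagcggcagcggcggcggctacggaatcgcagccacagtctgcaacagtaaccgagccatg
The ONECUT letters lay 59 to 53 bases before the annotated start site of the uncut upstream Hnf4a window and 214 to 208 bases before the Foxa2 start shown. Of 32851 RefSeq promoter windows of the same length, 1.86% held them. The windows of the other Foxa2 starts lacked the ONECUT letters: chr2:148045949-148046198 held no motif searched and chr2:148045465-148045714 held only the HNF1 letters. The HNF1 letters lay 77 to 69 bases before the downstream Hnf4a start, and also upstream of a start of Nr5a2 and of Foxa2, and 2.27% of the windows held them. Elsewhere among the 9 genes, the FOXA motif TGTTTAC matched 141 to 135 bases before the start of Foxa1 (3.17% of all windows) and the C/EBP motif TTGCNNAA matched 243 to 236 bases before a start of Nr5a2 (9.56% of all windows). The windows of Cebpa and Onecut1 held none of the 6 motifs searched, which also included the LRH-1 motif AAGGTCA (4.08% of all windows) and the HNF4A motif AAAGTCC (3.58%). Motifs can overlap in a window, and a match or its absence describes letters only.

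Tumours were set against normal liver to ask which of the factors keep their normal level in HCC. Foxa3 rose, Cebpa and Cebpb fell and Prox1 rose in WT tumours, while Hnf4a, Foxa1, Foxa2, Onecut1 and Nr5a2 did not pass the test there, each gene being represented by its tested probe set of highest mean. In Tlr4-mutant tumours Foxa3 rose and Cebpb fell, and in antibiotic tumours Nr5a2 fell. This is 2 of 9 members (22.2%) in Tlr4-mutant tumours, where 22.3% of all 9053 genes tested passed, 1 of 9 (11.1%) in antibiotic tumours, where 15% passed, and 4 of 9 (44.4%) in WT tumours, where 39% passed (limma, Benjamini-Hochberg adjusted p under 0.05 over all genes tested). The members were thus called about as often as genes at large. The 3 comparisons share the 3 normal livers. The median change of the 9 members was -0.29 log2 in Tlr4-mutant tumours, -0.66 in antibiotic tumours and -0.47 in WT tumours, against 0.02, 0.00 and -0.01 over all genes tested.

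**Figure D1:**
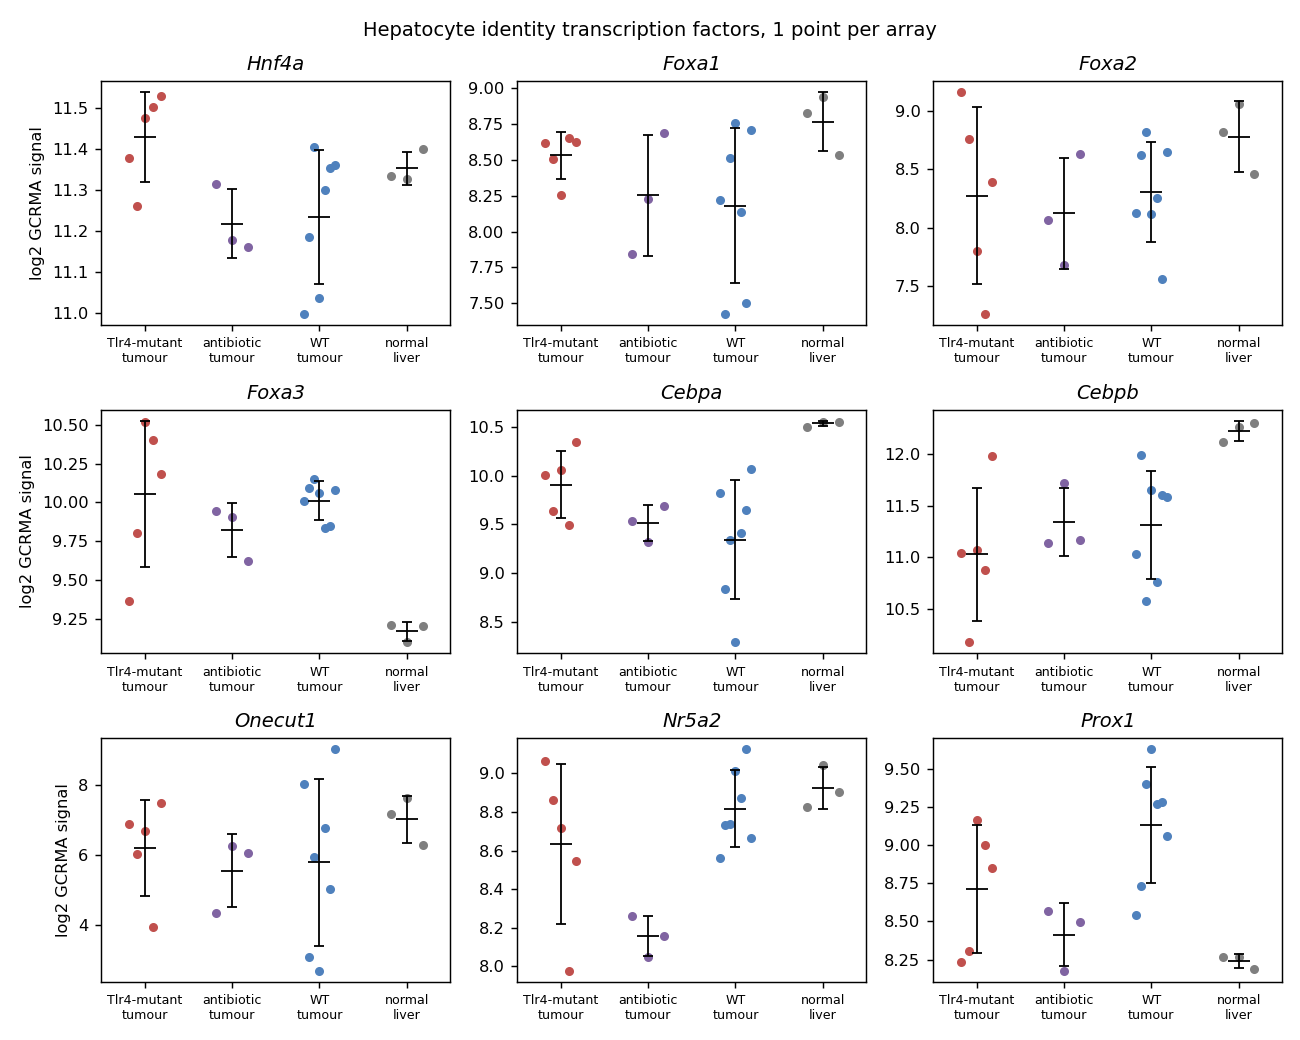
Log2 signal of the 9 genes on each of the 18 arrays, a panel for each gene, with Tlr4-mutant, antibiotic and WT tumours and normal liver from left to right, points for arrays and black bars for the group mean ± SD. By the representing probe sets shown, all 15 tumours sit above normal liver for Foxa3 and below it for Cebpa and Cebpb. Onecut1 spreads over log2 2.67 to 9.05 in WT tumours.

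Among the pioneer factors, Foxa3 (gene 15377, chr7:19013283-19023539), which acts in mature liver on glucose metabolism genes, had log2 9.36, 9.80, 10.52, 10.40 and 10.19 in Tlr4-mutant tumours, 9.94, 9.90 and 9.62 in antibiotic tumours and a lowest, median and highest value of 9.84, 10.06 and 10.15 in WT tumours, against 9.21, 9.10 and 9.20 in normal liver. Every tumour was above every normal liver. Foxa3 rose by 0.89 ± 0.20 log2 (SE; limma adjusted p = 0.00602) in Tlr4-mutant tumours and by 0.84 ± 0.19 (adjusted p = 0.00306) in WT tumours, and stood 0.65 ± 0.22 above normal liver in antibiotic tumours (adjusted p = 0.0589). Both calls held when any array was left out, with adjusted p of at most 0.0312 and 0.0187. The WT tumours lay close together, with an SD of 0.12 that ranked 8613 of 9053 genes.

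Foxa1 (gene 15375, chr12:57540628-57548029) and Foxa2 (gene 15376, chr2:148042877-148046969), needed together for the liver to form from the endoderm, overlapped between tumours and normal liver. Foxa1 averaged 8.53 ± 0.16 in Tlr4-mutant tumours, 8.25 ± 0.42 in antibiotic tumours, 8.18 ± 0.54 in WT tumours and 8.77 ± 0.21 in normal liver (log2, SD). Its differences from normal liver were -0.24, -0.51 and -0.59 (limma adjusted p = 0.575, 0.279 and 0.0945). Foxa2 averaged 8.28 ± 0.76 in Tlr4-mutant tumours, where the values were 9.16, 8.76, 7.80, 7.26 and 8.39, 8.13 ± 0.48 in antibiotic tumours, 8.31 ± 0.43 in WT tumours and 8.78 ± 0.30 in normal liver. Its differences from normal liver were -0.51, -0.66 and -0.47 (limma adjusted p = 0.333, 0.288 and 0.297). In the main fit none of these differences passed. With array weights Foxa1 passed in WT tumours (-0.66, limma adjusted p = 0.011) and Foxa2 in Tlr4-mutant tumours (-0.79, limma adjusted p = 0.025).

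Of the C/EBP factors, Cebpa (gene 12606, chr7:35119293-35121928), which sustains metabolic genes and restrains hepatocyte division, had log2 10.01, 9.63, 10.06, 9.50 and 10.34 in Tlr4-mutant tumours, 9.54, 9.32 and 9.69 in antibiotic tumours and 8.29, 9.42 and 10.07 as lowest, median and highest in WT tumours, against 10.50, 10.55 and 10.55 in normal liver. No tumour reached the normal level, and the lowest values were those of WT tumours 19 and 17. Cebpa fell by 1.19 ± 0.29 log2 in WT tumours (SE; limma adjusted p = 0.00529), and by 0.88 without WT tumours 17 and 19 (adjusted p = 0.00461). The differences were -0.63 ± 0.31 in Tlr4-mutant tumours (adjusted p = 0.153) and -1.02 ± 0.35 in antibiotic tumours (adjusted p = 0.0564). Without WT tumours 17 and 19 in the shared estimate of spread, the same differences had limma adjusted p = 0.0309 in Tlr4-mutant tumours and 0.00737 in antibiotic tumours.

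Cebpb (gene 12608, chr2:167688915-167690432), which carries the acute phase and regeneration response, had log2 11.04, 10.17, 11.07, 10.87 and 11.99 in Tlr4-mutant tumours, 11.14, 11.72 and 11.17 in antibiotic tumours and 10.57, 11.58 and 11.99 as lowest, median and highest in WT tumours, against 12.12, 12.26 and 12.31 in normal liver. By its representing probe set, 1418901_at, every tumour was again below every normal liver. Cebpb fell by 1.20 ± 0.35 log2 in Tlr4-mutant tumours (SE; limma adjusted p = 0.0231) and by 0.92 ± 0.33 in WT tumours (adjusted p = 0.0378), and was -0.89 ± 0.39 from normal liver in antibiotic tumours (adjusted p = 0.130). The calls were fragile: leaving out any normal liver or Tlr4-mutant tumour 24 raised the first to as much as 0.0761, and leaving out any normal liver or WT tumour 16, 18 or 20 raised that of WT tumours to as much as 0.110. A further Cebpb probe set, 1427844_a_at, differed from normal liver by -0.83, -0.41 and -0.38 in the 3 tumour groups and did not pass the test (limma adjusted p = 0.205, 0.613 and 0.513). By this probe set tumours overlapped with normal liver, at log2 7.23 to 9.67 against 8.94 to 9.43. Macrophages also express Cebpb, and the mean of 9 macrophage markers was 5.73 to 7.67 in Tlr4-mutant tumours, 4.93 to 7.33 in antibiotic tumours, 4.79 to 7.96 in WT tumours and 5.12 to 6.45 in normal liver, with Marco dim in all groups. Their part in the result was not tested.

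**Figure D2:**
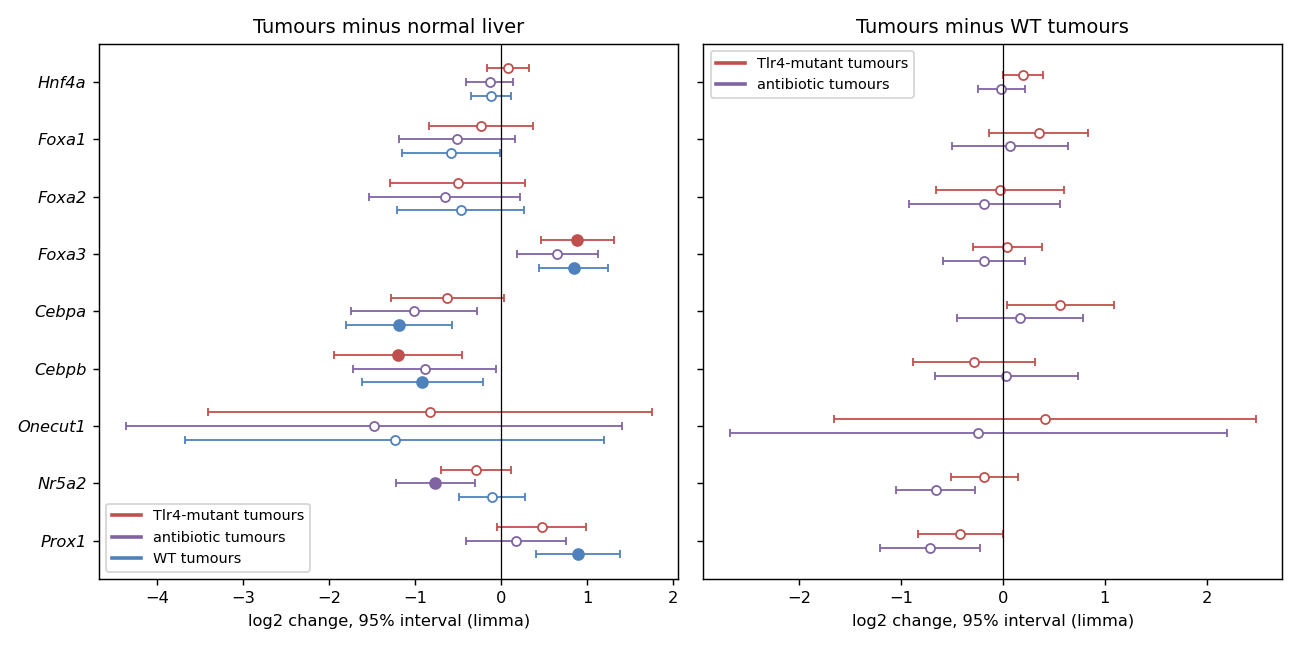
Log2 change of the 9 genes with 95% limma intervals, in the left panel for Tlr4-mutant, antibiotic and WT tumours (top to bottom within a gene) minus normal liver and in the right panel for Tlr4-mutant and antibiotic tumours minus WT tumours, filled for a limma adjusted p under 0.05. On the left Foxa3 lies above 0 by 0.89, 0.65 and 0.84, on the right no symbol is filled, and the intervals of Onecut1 are the widest in both.

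Prox1 (gene 19130, chr1:190118035-190170827), a homeobox factor that marks early hepatocyte precursors and lymphatic endothelium, had log2 8.24, 8.31, 9.17, 9.0 and 8.85 in Tlr4-mutant tumours, 8.57, 8.18 and 8.49 in antibiotic tumours and 8.54, 9.27 and 9.63 as lowest, median and highest in WT tumours, against 8.27, 8.27 and 8.19 in normal liver. All 7 WT tumours exceeded normal liver, whereas the other tumours overlapped with it. Prox1 rose by 0.89 ± 0.23 log2 in WT tumours (SE; limma adjusted p = 0.00728), which held without any array (adjusted p of at most 0.0330), and the differences were 0.47 ± 0.24 in Tlr4-mutant tumours (adjusted p = 0.174) and 0.17 ± 0.27 in antibiotic tumours (adjusted p = 0.698). Its weaker probe set 1457432_at differed by 0.01, -0.38 and 0.41 and did not pass (0.986, 0.407 and 0.216 as limma adjusted p). The lymphatic genes Mmrn1 and Pdpn were dim on every array, and the mean of the lymphatic markers ranged over 3.97 to 4.78 in Tlr4-mutant tumours, 2.85 to 5.85 in antibiotic tumours, 2.86 to 5.16 in WT tumours and 3.37 to 4.19 in normal liver.

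Nr5a2 (gene 26424, chr1:136842562-136960448) encodes LRH-1, a nuclear receptor for bile acid and cholesterol genes. Its brightest probe set, 1420410_at, had log2 9.06, 8.86, 8.72, 7.98 and 8.55 in Tlr4-mutant tumours, 8.26, 8.05 and 8.16 in antibiotic tumours and 8.56, 8.74 and 9.13 as lowest, median and highest in WT tumours, against 8.82, 9.04 and 8.91 in normal liver. The antibiotic tumours were below all WT tumours and all normal livers. Nr5a2 fell by 0.77 ± 0.22 log2 in antibiotic tumours (SE; limma adjusted p = 0.0268), a call that leaving out any normal liver or antibiotic tumour 29 or 30 raised to as much as 0.0944. In Tlr4-mutant tumours the difference from normal liver was -0.29 (adjusted p = 0.284) and in WT tumours -0.11 (adjusted p = 0.661), but with the mean of its tested probe sets they were -0.57 and -0.56 (limma adjusted p = 0.0139 and 0.00610).

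Hnf4a (gene 15378, chr2:163506811-163572907) varied least of the members over the 15 tumours by its representing probe set. This probe set, 1427001_s_at, averaged 11.43 ± 0.11 in Tlr4-mutant tumours, 11.22 ± 0.08 in antibiotic tumours, 11.23 ± 0.16 in WT tumours and 11.35 ± 0.04 in normal liver (log2, SD). The differences from normal liver were 0.08, -0.14 and -0.12 (limma adjusted p = 0.658, 0.491 and 0.394). With the mean of its 3 tested probe sets in place of this one, the differences were 0.64, 0.51 and 0.71 (limma adjusted p = 0.00198, 0.0203 and 0.000358). Over the 15 tumours its SD was 0.16, which ranked 8475 of 9053 genes.

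Onecut1 (gene 15379, chr9:74861921-74889648), a cut-homeobox factor of the developing and adult liver, varied far more. It had log2 6.89, 6.02, 6.70, 3.92 and 7.49 in Tlr4-mutant tumours, 4.33, 6.25 and 6.06 in antibiotic tumours and 2.67, 5.94 and 9.05 as lowest, median and highest in WT tumours, against 7.17, 7.63 and 6.30 in normal liver. The values below log2 4 were those of Tlr4-mutant tumour 26 and WT tumours 17 and 19, and the 2 highest, 8.05 and 9.05, were those of WT tumours 16 and 22. Its SD over the 15 tumours was 1.80, rank 125 of 9053 genes, and over the 7 WT tumours 2.40, rank 59. None of its mean differences from normal liver, -0.83 in Tlr4-mutant tumours, -1.48 in antibiotic tumours and -1.24 in WT tumours, passed (0.652, 0.479 and 0.410 as limma adjusted p), and that of WT tumours was -0.07 without WT tumours 17 and 19. Bile duct cells also express Onecut1, and the mean of 7 bile duct and progenitor markers was 3.72 to 4.06 in Tlr4-mutant tumours, 3.77 to 4.74 in antibiotic tumours, 3.12 to 4.75 in WT tumours and 2.55 to 2.7 in normal liver, with Krt7, Krt19 and Cldn4 dim on every array and all 7 dim in normal liver. Their part in the Onecut1 values was not tested.

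By their representing probe sets, 3 of the 9 genes (Foxa3, Cebpa and Cebpb) separated all 15 tumours from the 3 normal livers. So did 20.5% of all genes tested. By comparison, 3 members did not overlap in Tlr4-mutant tumours against normal liver (39% of all genes), 6 in antibiotic tumours (42.3%) and 4 in WT tumours (38.4%).

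Different probe sets of a gene did not always move alike. Within Hnf4a, 1421983_s_at rose in all 3 tumour groups although the representing probe set did not: it had 8.49, 8.50, 8.58, 8.20 and 8.11 in Tlr4-mutant tumours, 8.30, 8.45 and 8.09 in antibiotic tumours and 8.25, 8.55 and 8.76 as lowest, median and highest in WT tumours, against 6.44, 7.26 and 7.54 in normal liver. No tumour overlapped with normal liver. The changes were 1.30 ± 0.20, 1.20 ± 0.22 and 1.45 ± 0.19 log2 (SE; limma adjusted p = 0.000351, 0.00206 and 4.97e-05 over 16663 probe sets), and all 3 held without any array. The other Hnf4a probe set, 1427000_at, rose by 0.78 ± 0.22 in WT tumours (limma adjusted p = 0.0117, but 0.0863 without normal liver 2), and differed by 0.55 and 0.47 in Tlr4-mutant and antibiotic tumours (adjusted p = 0.0992 and 0.222). Of all probe sets tested, 24.3% passed in Tlr4-mutant tumours, 18.4% in antibiotic tumours and 39.9% in WT tumours.

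Nr5a2 showed the opposite sign. Its probe set 1449706_s_at had 7.12, 6.46, 6.30, 6.60 and 6.57 in Tlr4-mutant tumours, 7.17, 6.99 and 6.47 in antibiotic tumours and 6.02, 6.73 and 7.08 as lowest, median and highest in WT tumours, against 7.78, 7.93 and 7.98 in normal liver. It fell by 1.29, 1.02 and 1.22 log2 (limma adjusted p = 0.000752, 0.00958 and 0.000407) in Tlr4-mutant, antibiotic and WT tumours, and these calls held without any array. The third tested probe set, 1456521_at, differed by -0.13, -0.28 and -0.36 (limma adjusted p = 0.542, 0.241 and 0.0506). The files do not say which transcripts each probe set reads, and the larger 3′ bias of normal liver moves with these differences; its part in them was not tested. Pairs of probe sets followed each other over the 15 tumours for Cebpb (Pearson r = 0.991), Onecut1 (r = 0.985) and Prox1 (r = 0.877), with permutation p adjusted over 9 pairs of 4.5e-05, 4.5e-05 and 0.00012. For Hnf4a the pairs gave r of 0.10, -0.04 and 0.27 and for Nr5a2 0.21, 0.06 and 0.20 (adjusted permutation p = 0.717 to 0.876).

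**Figure D3:**
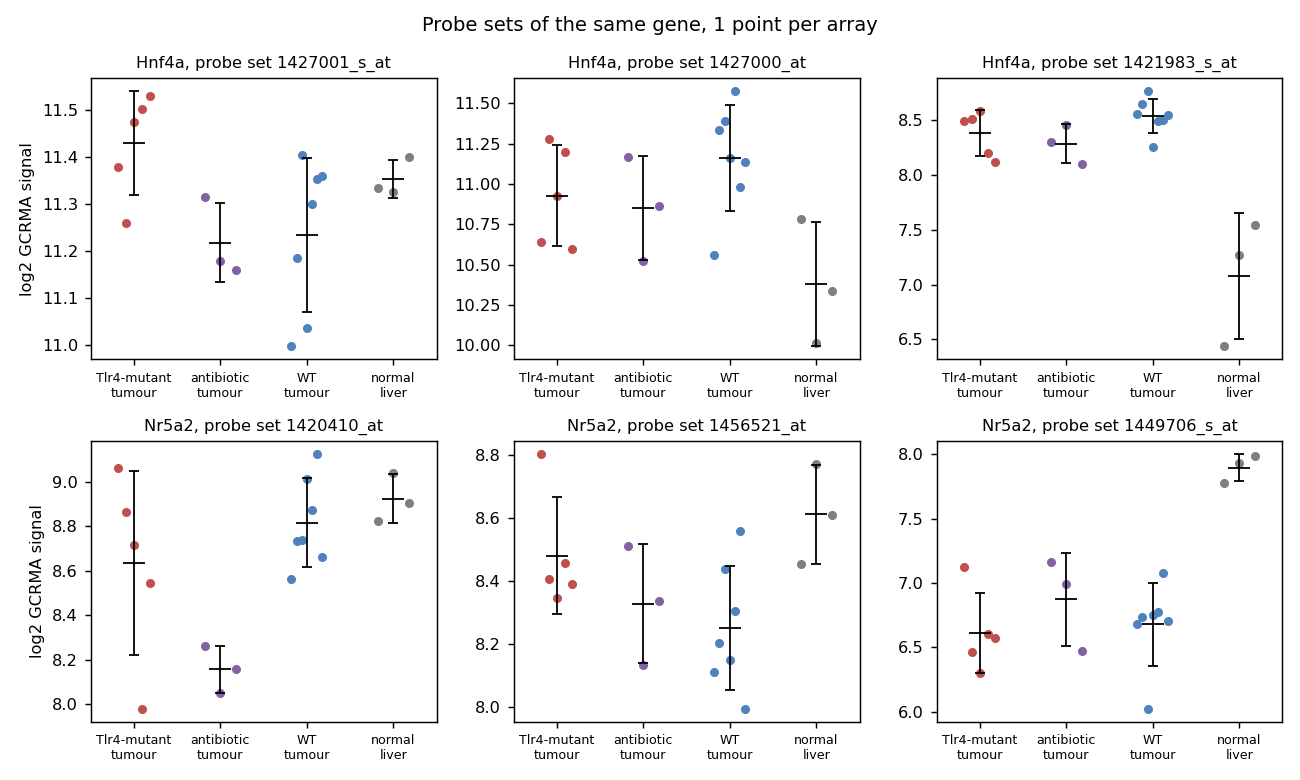
Log2 signal of the tested probe sets of Hnf4a and Nr5a2 by array, with Tlr4-mutant, antibiotic and WT tumours and normal liver from left to right and black bars for the group mean ± SD. The Hnf4a probe set 1421983_s_at is at 8.09 to 8.76 in tumours and 6.44 to 7.54 in normal liver, and the Nr5a2 probe set 1449706_s_at is at 6.02 to 7.17 in tumours and 7.78 to 7.98 in normal liver.

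Next, tumour groups were compared with each other, to ask whether the mutant Tlr4 substrain or antibiotics altered the factors within HCC. No member passed in Tlr4-mutant against WT tumours (0.265% of all genes passed), in antibiotic against WT tumours (0.0884%) or in Tlr4-mutant against antibiotic tumours (0.232%) by limma. Unadjusted p under 0.05 was reached by 3 members (16.7% of all genes), 2 members (15.5%) and 1 member (10.3%). In Tlr4-mutant against WT tumours these were Hnf4a at 0.20, Cebpa at 0.56 and Prox1 at -0.42 log2 (limma adjusted p = 0.295, 0.273 and 0.298). The Hnf4a probe sets 1427000_at and 1421983_s_at had the opposite sign there, at -0.23 and -0.16 log2 (limma adjusted p = 0.529 and 0.629). In antibiotic against WT tumours the members were Nr5a2 at -0.66 and Prox1 at -0.72 log2 (limma adjusted p = 0.158 and 0.190). By its brightest probe set, 1420410_at, Nr5a2 was lower in each of the 3 antibiotic tumours than in any WT tumour, a separation shown by 4.04% of all genes. Its other tested probe sets, 1456521_at and 1449706_s_at, overlapped and differed by 0.08 and 0.20 log2 there (limma adjusted p = 0.812 and 0.645). In Tlr4-mutant against antibiotic tumours the member was Nr5a2, at 0.48 log2 (limma adjusted p = 0.404). Its probe sets 1456521_at and 1449706_s_at were at 0.15 and -0.26 log2 in that comparison (limma adjusted p = 0.758 and 0.708). The 95% intervals of the differences ran from 0.04 to 1.09 for Cebpa in Tlr4-mutant against WT tumours and from -1.66 to 2.48 for Onecut1, so that at these sample numbers a difference of either sign was compatible with the Onecut1 values.

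The members were also compared with each other over the 15 tumours, in 36 pairs. By Pearson correlation, only Cebpa and Onecut1 passed: r was 0.797 (permutation p = 0.0003, adjusted p = 0.0108) and Spearman rho 0.754 (permutation p = 0.00202, adjusted p = 0.0727). The tumours with the lowest Onecut1, WT tumours 19 and 17, had the lowest Cebpa, and WT tumour 22, with the highest Onecut1, had a Cebpa of 10.07, the highest of the WT tumours. Without WT tumours 17 and 19, which are also the pair farthest from the median of Cebpa, r was 0.593 and no pair passed, so the call rests on those samples. Within the 7 WT tumours r was 0.908, and with group means removed it was 0.865, both with WT tumours 17 and 19 included. The hepatocyte markers were also lowest in WT tumours 17 and 19, and their part in the relation was not tested. Hnf4a and Cebpa gave r = 0.567 (adjusted permutation p = 0.450).

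**Figure D4:**
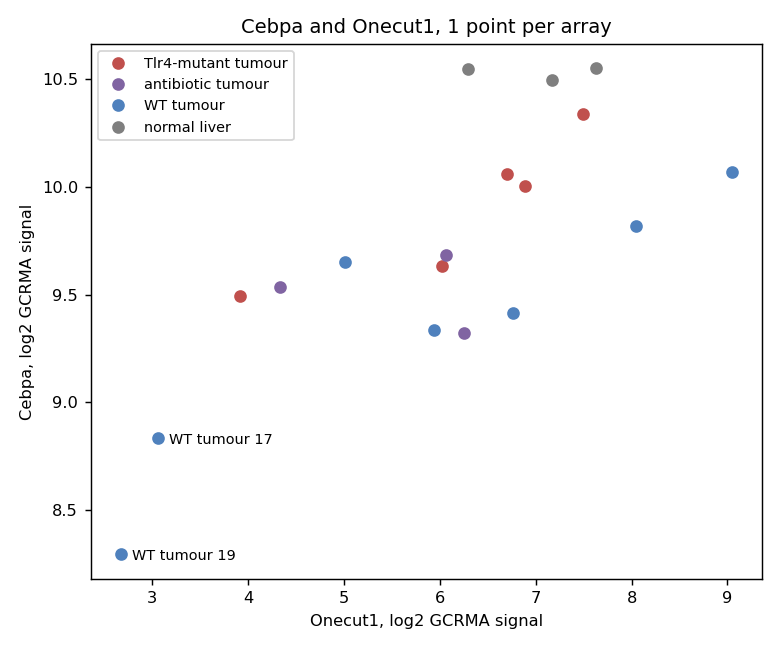
Log2 signal of Cebpa (vertical) against Onecut1 (horizontal), a point for each array, in Tlr4-mutant, antibiotic and WT tumours and normal liver, with WT tumours 17 and 19 labelled. The labelled tumours sit at the low end of both genes, and r over the 15 tumours is 0.797 with them and 0.593 without them.

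The other genes of the network were read from lists of known partners and targets, taking up to 3 genes of smallest p in WT tumours for naming. The counts stand beside the 22.3%, 15% and 39% of all genes tested that passed in Tlr4-mutant, antibiotic and WT tumours against normal liver. Those of the fetal liver genes are an exception, described below. Of 17 tested liver transcription factors outside the set, 1 was higher and 6 were lower in Tlr4-mutant tumours, 1 was lower in antibiotic tumours, and 2 were higher and 8 lower in WT tumours (41.2%, 5.88% and 58.8% of the list, with list medians of -0.53, -0.59 and -0.78 log2). Hhex, a homeobox factor of liver budding, differed by -0.53, -0.49 and -0.81 from normal liver (limma adjusted p = 0.0328, 0.0834 and 0.00121). Klf15, a factor of fasting metabolism, was at -0.86, -0.87 and -1.49 (adjusted p = 0.0628, 0.106 and 0.0017), and Gata6, an endoderm factor, at 0.92, 0.94 and 1.22 (adjusted p = 0.0324, 0.0589 and 0.00296). The factor lower in antibiotic tumours was Ppara, the fatty acid receptor, at -1.27 (limma adjusted p = 0.0475), named after its values were seen. The counts moved when an array was left out, over 0 to 8 calls in Tlr4-mutant tumours, 0 in antibiotic tumours and 5 to 10 in WT tumours.

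Among 5 tested partners of the C/EBP proteins, 2 were higher in Tlr4-mutant tumours, 1 in antibiotic tumours and 3 in WT tumours, and none was lower (40%, 20% and 60%, with list medians of 0.62, 0.68 and 0.83). Cebpg, a partner that dimerises with C/EBP factors, differed by 0.88, 0.68 and 0.83 (limma adjusted p = 0.00354, 0.0364 and 0.00186). Atf4, the effector of the integrated stress response, was at 0.62, 0.54 and 0.95 (adjusted p = 0.0343, 0.103 and 0.0013). Ddit3, which encodes the stress factor CHOP, was at 0.79, 1.62 and 2.04 (adjusted p = 0.354, 0.112 and 0.011), and the WT call was lost without normal liver 1. The count was 1 in Tlr4-mutant tumours without normal liver 2 or 3 or Tlr4-mutant tumour 24, 25 or 26, and 0 in antibiotic tumours without normal liver 1 or 3 or antibiotic tumour 28 or 29.

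The direct targets of the factors were read in the same way. Of 17 HNF4A targets, 1 was higher in Tlr4-mutant tumours, none passed in antibiotic tumours, and 1 was higher and 5 lower in WT tumours. The shares were 5.88%, 0% and 35.3%, against 22.3%, 15% and 39% of all genes tested, and the list medians -0.07, -0.18 and -0.24. The number lower in WT tumours was 1 without any one normal liver or WT tumour 20, 2 without WT tumour 18, 3 without WT tumour 17 or 19 or both, and 4 to 5 without another WT tumour. Apoc2, an activator of lipoprotein lipase, was at 1.56, 0.78 and 1.30 from normal liver (limma adjusted p = 0.00586, 0.181 and 0.0066). Cyp8b1, which sets the bile acid composition and is a target of LRH-1 too, was at -3.19, -2.76 and -4.89 (adjusted p = 0.0961, 0.214 and 0.00715). Otc of the urea cycle was at -0.51, -0.73 and -1.37 (adjusted p = 0.506, 0.421 and 0.0419), and the WT call was lost without any normal liver, WT tumour 17 or WT tumour 20. Without both WT tumours 17 and 19, Otc was at -0.83 in WT tumours (limma adjusted p = 0.0103). Hnf4a itself, by its representing probe set, did not pass in any of the 3 comparisons.

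Of 9 C/EBP alpha targets, none passed in Tlr4-mutant or antibiotic tumours and 3 were lower in WT tumours. The shares were 0%, 0% and 33.3%, against 22.3%, 15% and 39% of all genes tested, and the list medians -0.28, -0.13 and -0.73. Hamp, the iron hormone hepcidin, was at -1.03, -0.52 and -4.07 (limma adjusted p = 0.647, 0.860 and 0.0312), and at -2.37 in WT tumours without WT tumours 17 and 19. Pck1 of gluconeogenesis was at -0.28, -0.09 and -1.86 (adjusted p = 0.811, 0.957 and 0.0450), and the clotting factor F9 at -0.04, -0.27 and -0.42 (adjusted p = 0.871, 0.322 and 0.0421). Each of these calls in WT tumours was lost without any normal liver or without some WT tumours, so that the count ran over 0 to 3 when an array was left out.

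Of 9 C/EBP beta and acute phase targets, 4 were higher in Tlr4-mutant tumours, 2 in antibiotic tumours and 2 in WT tumours, where 1 was lower (44.4%, 22.2% and 33.3%, with list medians of 0.21, 0.15 and 0.20). Lcn2, an iron-binding acute phase protein, rose by 8.87, 7.61 and 8.39 log2 (limma adjusted p = 9.19e-07, 3.08e-05 and 7.31e-07). Il1rn, the interleukin 1 receptor antagonist, was at least 10.8-fold, 4.82-fold and 6.04-fold higher (limma adjusted p = 0.00218, 0.03 and 0.00293), the bound being set against log2 4 because it was dim in normal liver. Crp was at -0.99 in WT tumours (adjusted p = 0.0316), which was lost without any normal liver or WT tumour 20. The further genes higher in Tlr4-mutant tumours were Hp at 0.48 and Fgb at 0.31 (limma adjusted p = 0.0127 and 0.0397), named after their values were seen, and the count was 2 to 3 when any array was left out. In antibiotic tumours it was 1 without any normal liver or antibiotic tumour 29. Lcn2 was higher in every tumour group, while Cebpb fell in Tlr4-mutant and WT tumours and did not pass in antibiotic tumours.

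Of 8 FOXA targets, 2 were higher in each tumour group and 1 was lower in WT tumours (25%, 25% and 37.5%, with list medians of -0.01, 0.05 and -0.09). Igfbp1, a binding protein of insulin-like growth factors, rose by 4.53, 4.22 and 4.79 (limma adjusted p = 1.83e-06, 3.08e-05 and 5.63e-07), and Afp, the fetal serum protein, by 8.09, 6.06 and 8.97 (adjusted p = 5.12e-05, 0.00237 and 7.57e-06). The lower gene was Pck1, and the number lower was 0 to 2 when an array was left out. Of 7 LRH-1 targets, 1 was higher in Tlr4-mutant tumours, none passed in antibiotic tumours, and 1 was higher and 3 lower in WT tumours (14.3%, 0% and 57.1%, with list medians of -0.22, -0.61 and -0.68). The higher gene was Scarb1, the receptor for high-density lipoprotein, at 0.75 in Tlr4-mutant and 0.51 in WT tumours (limma adjusted p = 0.0178 and 0.0487), named after its values were seen. No target was higher in WT tumours in 9 of the 10 fits that left out an array, all but that without WT tumour 16, nor in Tlr4-mutant tumours without normal liver 3. Slc10a1, the bile acid importer, was at -0.90, -0.95 and -1.73 (adjusted p = 0.191, 0.240 and 0.00828) and Cyp7a1, the enzyme that limits bile acid production, at -3.12, -0.35 and -3.47 (adjusted p = 0.108, 0.900 and 0.0423). The Cyp7a1 call was lost in 7 of 10 fits that left out an array, and without WT tumours 17 and 19 the WT counts were 0 higher and 2 lower.

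Of 6 tested genes of the fetal liver, 5 (83.3%) were higher in each tumour group, or 4 to 5 in antibiotic tumours when an array was left out. Of the 6, 5 were dim in normal liver and passed the filter only through tumours. The list was also chosen with earlier results of these data known. Its share therefore cannot be set against that of all genes tested. Scd2, a fetal fatty acid desaturase, was at least 229-fold, 195-fold and 263-fold higher, and Igdcc4 at least 57.1-fold, 35.9-fold and 52.9-fold higher, in Tlr4-mutant, antibiotic and WT tumours (limma adjusted p of at most 2.4e-07), both being dim in normal liver. The others were Afp, Gpc3 and Ly6d, the last 2 named after their values were seen. Genes on several lists (Pck1, F9, Cyp7a1, Cyp8b1, Afp and Cebpd) were counted in each, and no gene of these lists passed between tumour groups.

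**Figure D5:**
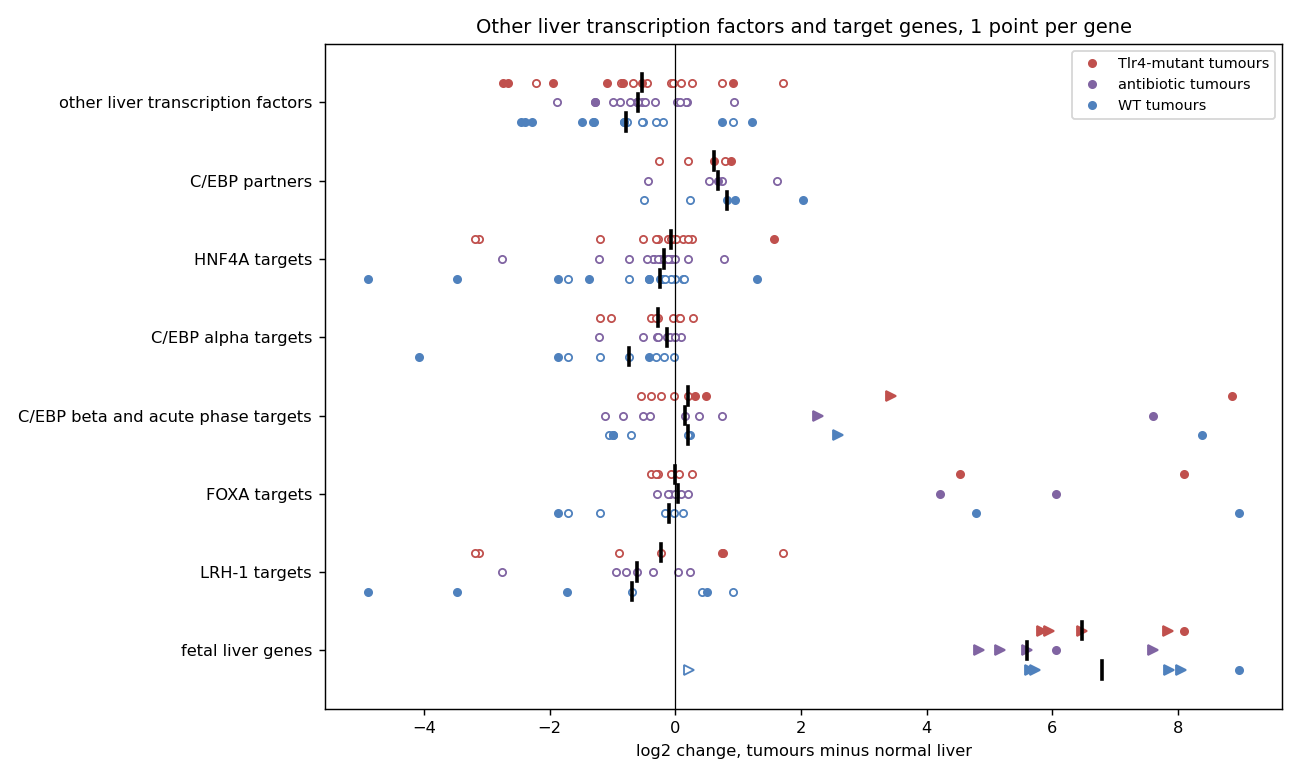
Change from normal liver in log2 of the tested genes of each list, with Tlr4-mutant, antibiotic and WT tumours from top to bottom, filled for a limma adjusted p under 0.05, triangles for lower bounds where normal liver was dim, and black ticks for list medians with the bounds used. Genes of the fetal liver stand far above 0 in all 3 tumour groups, with medians of 6.47, 5.60 and 6.79, and other liver transcription factors lie mostly below 0.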

How the data were processed

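The deposited table held log2 values of 45101 probe sets on 18 arrays, which the authors made with GCRMA per the submitters' processing notes, with a version not given in the sources used here. Per the labels' protocols, 100 ng of RNA was amplified and labelled with a 3′ kit, and signal therefore leans to transcript ends. Scanner files were not used here. Of the probe sets, 34958 carried a single gene symbol in the platform annotation, 932 several and 9160 none, and 64 were controls. Probe sets above log2 4 on at least 3 arrays were kept (16663, of which 14689 with a single symbol), and the brightest of these on average stood for each of 9053 genes. limma 3.58.1 in R 4.3.3 fitted 4 group means to all 18 arrays, with 6 two-sided comparisons and Benjamini-Hochberg adjustment over all genes tested at 0.05, after the procedure was tested on simulated data. Correlations over the 15 tumours used 100000 permutations in Python 3.11.15 with numpy 2.4.6 and scipy 1.17.1, and figures matplotlib 3.10.9. A value is dim where no array of a group exceeded log2 4, and a fold is then a lower bound against that level.

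Named were the 9 members with all their probe sets and up to 3 genes of smallest p in WT tumours against normal liver in each list (other liver transcription factors, C/EBP partners, targets of HNF4A, C/EBP alpha, C/EBP beta, FOXA and LRH-1, and fetal liver genes). Up to 3 of the genes most correlated with each member were also named. The members and lists were chosen with earlier results of these data known. Alternatives were the filter, the choice of probe set, centring, array weights, the arrays fitted, the threshold and leaving out arrays. H19 shares its probe set with Mir675 and was not tested.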

Additional observations from a re-analysis of the deposited data

Results flagged for a closer look

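In 2 of 32 groups of 4 to 10 arrays examined over the tested probe sets of the members, an array lay far from the others of its group, where chance flags about 1 in 20. For Nr5a2 1456521_at, Tlr4-mutant tumour 23 had the highest value of its group, log2 8.80, with the nearest of the others at 8.46. For Nr5a2 1449706_s_at, WT tumour 18 had the lowest value of its group, log2 6.02, with the nearest at 6.68. Both probe sets belong to the bile acid and cholesterol regulator LRH-1.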

How the results depend on the processing

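Most changes of single members kept their direction and their side of the threshold: 1231 of the values recomputed for probe sets and genes did so, 45 reversed, 19 gained and 22 lost the call. The arrays' own noise limits small changes, 3 arrays limit the normal and antibiotic groups most, and signals near log2 4, such as Onecut1 in WT tumours 17 and 19, hold little above background. Values without WT tumours 17 and 19 for list genes and for probe sets that do not represent a gene, and those with each array left out for these, were chosen after seeing the data.

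Without probe sets of possible shared sequence Foxa3 was not tested, since its only probe set was left out. The number of members passing in Tlr4-mutant tumours against normal liver was then 1. It was 5 with array weights and 1 at an adjusted p of 0.01. In antibiotic tumours against normal liver it was 2 with the mean of the probe sets, 2 with probe sets tested singly, 2 with arrays centred, 3 with array weights, 4 with only the compared groups fitted, 0 at 0.01 and 2 without WT tumours 17 and 19. Settings that moved a count only slightly are not listed. Among them, Cebpa passed in Tlr4-mutant tumours with only the compared groups fitted (limma adjusted p = 0.039) and without WT tumours 17 and 19 (0.0309). In WT tumours Foxa1 passed with array weights (limma adjusted p = 0.011), and Cebpb lost its call with the mean of its probe sets (0.189). With each array left out, the number of members passing was 1 to 2 in Tlr4-mutant, 0 to 1 in antibiotic and 3 to 4 in WT tumours, and 0 between tumour groups. The correlated pairs numbered 0 by Spearman, 0 without WT tumours 17 and 19, and 0 to 2 with each array left out (0 without WT tumour 17 or 19).

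Hnf4a depended on the probe sets: with their mean it was 0.64 above normal liver in Tlr4-mutant tumours (limma adjusted p = 0.00198), 0.51 in antibiotic tumours (0.0203) and 0.71 in WT tumours (0.000358), and without those of shared sequence 0.47 in antibiotic (0.237) and 0.78 in WT tumours (0.0126), while Tlr4-mutant minus WT tumours turned to -0.065 and -0.23. With the mean of its probe sets Nr5a2 passed in Tlr4-mutant (-0.57, limma adjusted p = 0.0139) and WT tumours (-0.56, 0.00610) against normal liver. Prox1 in antibiotic tumours minus normal liver turned to -0.10 with the mean. Cebpb lost its calls with the mean of its probe sets (limma adjusted p = 0.0828 in Tlr4-mutant and 0.189 in WT tumours) and without a filter (0.0555 in WT tumours). The other reversals, except that of a Prox1 probe set, were of differences between tumour groups that did not pass the test. With arrays centred, Foxa2 in Tlr4-mutant minus WT tumours was 0.0048 and Hnf4a in antibiotic minus WT tumours 0.0077. With array weights, antibiotic minus WT tumours was -0.012 for Foxa1 and -0.018 for Cebpa, and Tlr4-mutant minus antibiotic tumours -0.015 for Foxa2. Without WT tumours 17 and 19, Onecut1 in Tlr4-mutant minus WT tumours was -0.76 and Cebpa in antibiotic minus WT tumours -0.14. With each array left out, antibiotic minus WT tumours ran over -0.0068 to 0.29 for Cebpa, -0.16 to 0.14 for Cebpb, -0.14 to 0.28 for Foxa1, -0.43 to 0.040 for Foxa2, -0.064 to 0.014 for Hnf4a and -0.76 to 0.37 for Onecut1. Tlr4-mutant minus WT tumours ran over -0.25 to 0.22 for Foxa2, -0.074 to 0.22 for Foxa3 and -0.11 to 0.98 for Onecut1, Tlr4-mutant minus antibiotic tumours over -0.072 to 0.40 for Foxa2, and Tlr4-mutant tumours minus normal liver over -0.18 to 0.12 for Prox1 1457432_at. The causes were not tested. No paired analysis was possible because the groups share no replicate numbers.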

Other observations

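The genes whose levels followed each member most closely over the 15 tumours are given as a description, from 9053 genes that share the same arrays. Cebpa was followed by Apoa2, an apolipoprotein of high-density lipoprotein (Pearson r = 0.92), Mccc1 of leucine breakdown (0.92) and Uroc1 of histidine breakdown (0.91). Hnf4a was followed by Sra1 (0.91), Gcgr, the glucagon receptor (0.90), and Zbtb48 (0.88), and Prox1 by Baz2a (0.91), Rreb1 (0.87) and Pphln1 (0.86). Onecut1 was followed by the kinase Camkk2 (0.86), Rgs3 (0.85) and Shfl (0.81). Foxa1 was followed most closely by Amotl1 (0.83), Foxa2 by Mrpl36 (0.80), Foxa3 by Sdad1 (0.86), Cebpb by Gapvd1 (0.86) and Nr5a2 by Camk1d (0.85).

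Of the hepatocyte markers and the markers of other cell types, endothelial markers averaged log2 5.62 to 6.46 in Tlr4-mutant tumours, 4.74 to 7.13 in antibiotic tumours, 3.51 to 6.33 in WT tumours and 4.84 to 5.70 in normal liver. Stellate cell and fibroblast markers averaged 5.65 to 6.63, 5.66 to 7.48 and 4.86 to 6.81 in the 3 tumour groups in the same order, and 5.52 to 6.28 in normal liver. Of T, NK and B cell markers, 6 of 8 were dim in every group, and of pancreatic acinar markers 4 of 5.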
